A study of Mus musculus with 18 samples.

Results

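The genes described here are the enzymes of purine salvage and degradation in bone marrow-derived macrophages (BMDMs), macrophages grown in culture from bone marrow with L929 cell supernatant as the source of M-CSF. They were chosen by name as 10 rows (*Entpd1*, *Nt5e*, *Ada*, *Pnp*, *Pnp2*, *Xdh*, *Hprt*, *Adk*, *Impdh1* and *Impdh2*) of the 20615 genes in the count table, and all 10 were among the 15789 genes that passed the filter on low counts. RNA was sequenced from 18 samples in 6 groups of 3. BMDMs came from C57BL/6 (B6) mice and from C57BL/6.NOD-*Aec1Aec2* (SjSs) mice, a model of Sjögren's syndrome that carries the NOD intervals *Aec1* and *Aec2* on the B6 background, with 3 mice for each strain, aged 7 to 12 weeks. Each strain gave untreated BMDMs (control), BMDMs fed apoptotic cells (AC), and BMDMs stimulated for 6 h with 1 µM CpG, a synthetic oligonucleotide sensed by endosomal Toll-like receptors. The ACs were thymocytes killed with dexamethasone, added at 5 per BMDM for 2 h. RNA was taken 3 h after the wash according to the labels and the study's results, while its methods give a longer interval. The strain of the thymocyte donors, and whether equally numbered samples shared a mouse, was not given in the sources used here.

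Purine nucleotides that leave cells are broken down at the cell surface by CD39 (*Entpd1*), which removes phosphates from ATP and ADP, and CD73 (*Nt5e*), which turns AMP into adenosine. Adenosine deaminase (*Ada*) converts adenosine to inosine, purine nucleoside phosphorylase (*Pnp*) splits inosine and guanosine into a free base and a sugar phosphate, and xanthine dehydrogenase (*Xdh*) oxidizes hypoxanthine and xanthine to uric acid. Salvage runs the other way: *Hprt* rebuilds IMP and GMP from free bases, *Adk* rebuilds AMP from adenosine, and the IMP dehydrogenases *Impdh1* and *Impdh2* direct IMP toward guanine nucleotides. Macrophages that engulf dying cells take in large amounts of nucleic acid, and extracellular adenosine is known to restrain inflammatory macrophages.

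The NOD intervals of SjSs mice lie on chromosomes 1 and 3, and none of the 10 genes lies there: *Ada* is on chromosome 2, *Impdh1* on 6, *Nt5e* and *Impdh2* on 9, *Pnp*, *Pnp2* and *Adk* on 14, *Xdh* on 17, *Entpd1* on 19 and *Hprt* on X. *Pnp* runs on chromosome 14 from 50944302 to 50965238 (mm10, plus strand), and *Pnp2*, a close copy of it, lies inside that interval from 50955992 to 50964750 on the same strand. In GENCODE M21 the exons of the pair share no base, but the coding sequences of their longest transcripts are 93.0% identical over 915 aligned columns, of which 48 are gaps, and 17.5% of the 100-base stretches of the *Pnp2* transcript also occur in that of *Pnp*. The following stretches of 120 coding bases, the first aligned without a gap, are shown because they make plain how little separates the transcripts there. They need not stand for the rest of the transcripts. The first runs from base 4 to base 123 of the *Pnp* coding sequence and the second from base 49 to base 168 of that of *Pnp2*, both 5′ to 3′, with the only base that differs in capitals.
Pnp: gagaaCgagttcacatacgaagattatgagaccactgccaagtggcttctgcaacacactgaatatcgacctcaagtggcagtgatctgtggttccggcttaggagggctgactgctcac
Pnp2: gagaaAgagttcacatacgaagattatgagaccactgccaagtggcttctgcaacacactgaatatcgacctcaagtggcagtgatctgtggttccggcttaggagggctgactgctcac

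The promoter of *Pnp* is shown because *Pnp* had the largest AC response of the 10 genes after *Pnp2*, which has no window in the RefSeq table used. RefSeq windows of 250 bases upstream of a start were matched for 8 of the 10 genes, all but *Pnp2* and *Xdh*. The window below is chr14:50944053-50944302 (GRCm38.p6, plus strand), with the letters TTGCGCAA, a palindrome of the C/EBP type, in capitals.
Pnp promoter: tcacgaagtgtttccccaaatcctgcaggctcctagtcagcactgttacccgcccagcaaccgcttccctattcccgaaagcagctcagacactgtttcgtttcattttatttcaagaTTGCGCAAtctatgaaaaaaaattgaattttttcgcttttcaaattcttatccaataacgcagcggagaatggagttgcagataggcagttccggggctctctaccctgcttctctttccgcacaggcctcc
TTGCGCAA was found in 54 of 32851 windows of this length (0.164%), and was put on the search list after this window had been read. On both strands, TTCNNNGAA (GAS type, in 7.02% of windows), TGANTCA (AP-1 type, 6.75%), an ISRE type motif (2.98%) and a loose NF-kB type motif (45.8%) were also searched. None of these is in the *Pnp* window, and the *Ada* window holds TTCNNNGAA. A match is a string of letters and not a site known to be bound.

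The libraries held between 30688288 and 57139640 counts, and the mean correlation of a library with its own group was 0.987 to 0.992 on the log2 scale of CPM. CPM are the read counts of a gene scaled by the library total after TMM normalisation, not by the library total alone. The summed level of 10 macrophage markers was 15900 to 22400 CPM over the 6 groups. The summed level of 20 T lineage and thymocyte markers was 7.17 CPM in B6 AC against 10.5 CPM in B6 control, and 18.3 CPM in SjSs AC against 12.2 CPM in SjSs control. *Cd4*, which macrophages can also express, made up 8.60 and 3.57 CPM of these sums in B6 control and B6 AC and 13.97 CPM in SjSs AC. Without *Cd4* the sum of the other 19 markers was higher with ACs in both strains. It was 1.86 CPM (1.49 to 2.10 over the samples) in B6 control against 3.60 CPM (3.02 to 4.15) in B6 AC. In SjSs this sum was 1.94 CPM (1.48 to 2.28) in SjSs control against 4.33 CPM (3.79 to 4.65) in SjSs AC. With CpG, where no ACs were given, it was 2.37 CPM (1.49 to 3.00) in B6 and 2.35 CPM (2.10 to 2.79) in SjSs. Over the 3 libraries of a group, *Rag1* went from 0 counts in B6 control to 24 in B6 AC, *Dntt* from 0 to 18 and *Cd8a* from 1 to 26. In SjSs these went from 0 to 3, from 2 to 1 and from 12 to 10. The B6 CpG libraries, given no ACs, held 0 counts of *Rag1*, 0 of *Dntt* and 19 of *Cd8a*. Not every marker rose: in SjSs *Cd247* went from 6 to 81 counts and *Lck* from 21 to 86, but *Cd3e* from 5 to 4. In B6 *Lat* went from 106 to 72. In SjSs CpG, without ACs, *Cd247* was at 67 counts and *Lck* at 31. Markers of fibroblasts and stroma summed to 173 to 210.4 CPM in the SjSs groups and to 74.4 to 93.9 CPM in the B6 groups. Most of this sum was *Col1a1* (76.7 to 88.6 against 29.4 to 36.4 CPM) and *Col1a2* (85.7 to 113.5 against 36.3 to 48.1 CPM). These moved with strain, as did *Dcn* (0.424 to 0.840 against 0.159 to 0.277 CPM). The strains overlapped for *Col3a1* (8.99 to 10.8 against 7.36 to 13.4 CPM) and *Pdgfra* (1.05 to 1.36 against 0.855 to 1.14 CPM). The part of such cells in the strain differences below was not tested. Sums were 10.2 to 22.5 CPM for 5 B cell markers, with *Cd79b* at 9.83 to 21.8 CPM, 1.24 to 3.03 CPM for 5 dendritic cell markers, and 0.0303 to 1.94 CPM for the 2 of 5 neutrophil markers in the table. In bulk RNA, a change in the level per cell and a change in the number of cells of a type cannot be told apart.

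Levels of different genes were compared per kilobase of the longest transcript. In B6 control BMDMs *Hprt* stood first at 121 ± 12.0 CPM per kb (SD, n = 3), followed by *Xdh* at 74.4 ± 12.7, *Entpd1* at 53.9 ± 4.36 and *Pnp* at 44.0 ± 1.14 CPM per kb. *Impdh1* (14.7 ± 0.352 CPM per kb), *Adk* (11.5 ± 1.44 CPM per kb) and *Impdh2* (6.84 ± 0.443 CPM per kb) formed a middle range. *Ada* (2.23 ± 0.342 CPM per kb), *Pnp2* (0.890 ± 0.170 CPM per kb) and *Nt5e* (0.491 ± 0.117 CPM per kb) were the lowest, so CD73 message was rare beside CD39 message. *Pnp* moved from the fourth place in B6 control to the first in B6 CpG (224 ± 22.3 CPM per kb). In SjSs it moved from the third place in control, above *Entpd1* at 49.98 ± 7.09 CPM per kb, to the first with ACs (423 ± 17.9 CPM per kb) and with CpG (134 ± 20.5 CPM per kb). In SjSs CpG its SD reached the level of *Hprt* (121 ± 5.37 CPM per kb). In SjSs AC, *Hprt* (121 ± 2.09 CPM per kb) and *Xdh* (114 ± 4.77 CPM per kb) lay close to each other, as did *Adk* (10.7 ± 0.219), *Impdh2* (10.3 ± 0.374) and *Pnp2* (10.1 ± 0.749 CPM per kb).

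**Figure D1:**
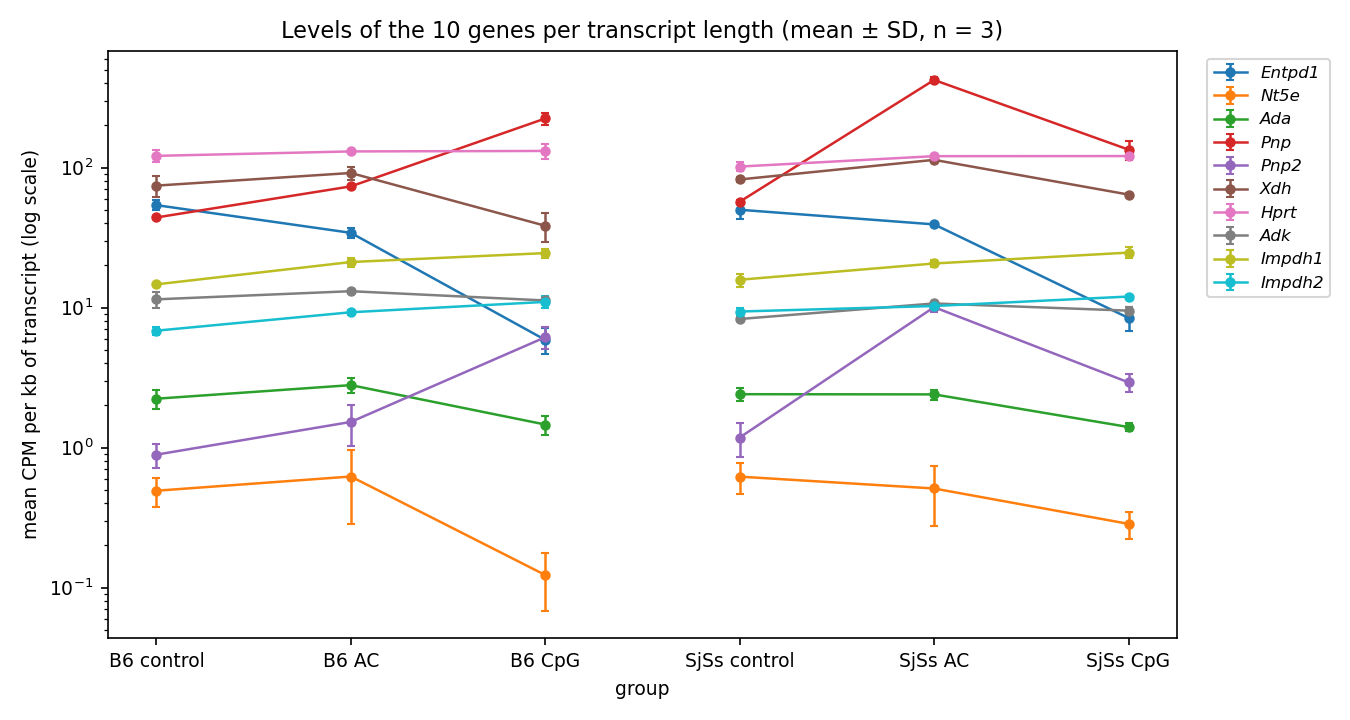
Mean CPM per kilobase of transcript (log axis) of the 10 genes in the 6 groups; points are means and bars are SDs of 3 samples, and lines join the groups of a strain for reading only. *Pnp* is at 44.0 CPM per kb in B6 control and at 423 CPM per kb in SjSs AC, while *Entpd1* is at 53.9 CPM per kb in B6 control and 5.88 CPM per kb in B6 CpG.

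Each comparison was tested with edgeR's quasi-likelihood test, with p-values adjusted over all 15789 genes, and a gene is said to have passed at an adjusted p under 0.05. The responses to ACs and to CpG in a strain share that strain's control samples. With ACs, 6 of the 10 genes passed in B6 BMDMs (5 higher, 1 lower), beside 38.3% of all genes tested (20.0% higher, 18.3% lower). In SjSs BMDMs 7 of the 10 passed (6 higher, 1 lower), beside 58.0% of all genes (28.6% higher, 29.4% lower). With CpG, 8 of 10 passed in B6 (4 higher, 4 lower), beside 57.9% of all genes (28.1% higher, 29.8% lower), and 10 of 10 in SjSs (6 higher, 4 lower), beside 54.2% (27.8% higher, 26.4% lower). Between strains, 4 of 10 passed without treatment (19.6% of all genes), 3 of 10 with ACs (49.4%) and 5 of 10 with CpG (19.7%). The response to ACs differed between strains for 3 of 10 genes (37.9% of all genes) and the response to CpG for 2 of 10 (5.85%). For 10 genes, these shares cannot be called particular to the group. Genes that also changed by over 1.3 on the log2 scale numbered 0 for ACs in B6 (4.47% of all genes), 2 for ACs in SjSs (12.9%), 4 for CpG in B6 (12.7%) and 2 for CpG in SjSs (9.26%). The same count was 0 between untreated strains (2.01%), 2 with ACs (8.93%), 0 with CpG (2.61%), and 2 and 1 for the interactions with AC (7.53%) and CpG (0.614%). Median log2 fold changes of all genes were between -0.05 and 0.03 in the 9 comparisons. Scaling by library totals alone, without TMM, moved that median by -0.41 in the AC response of SjSs, by -0.30 in the strain difference with ACs, by -0.34 in the interaction of strain and AC, by -0.18 in the CpG response of B6 and by -0.13 in the CpG response of SjSs, and by under 0.1 elsewhere. Under that scaling 5 of the 10 genes passed with ACs in SjSs (2 higher, 3 lower) and 9 with CpG in B6 (4 higher, 5 lower). With ACs in B6 there were 4 higher and 1 lower, and with CpG in SjSs 4 higher and 4 lower.

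**Figure D2:**
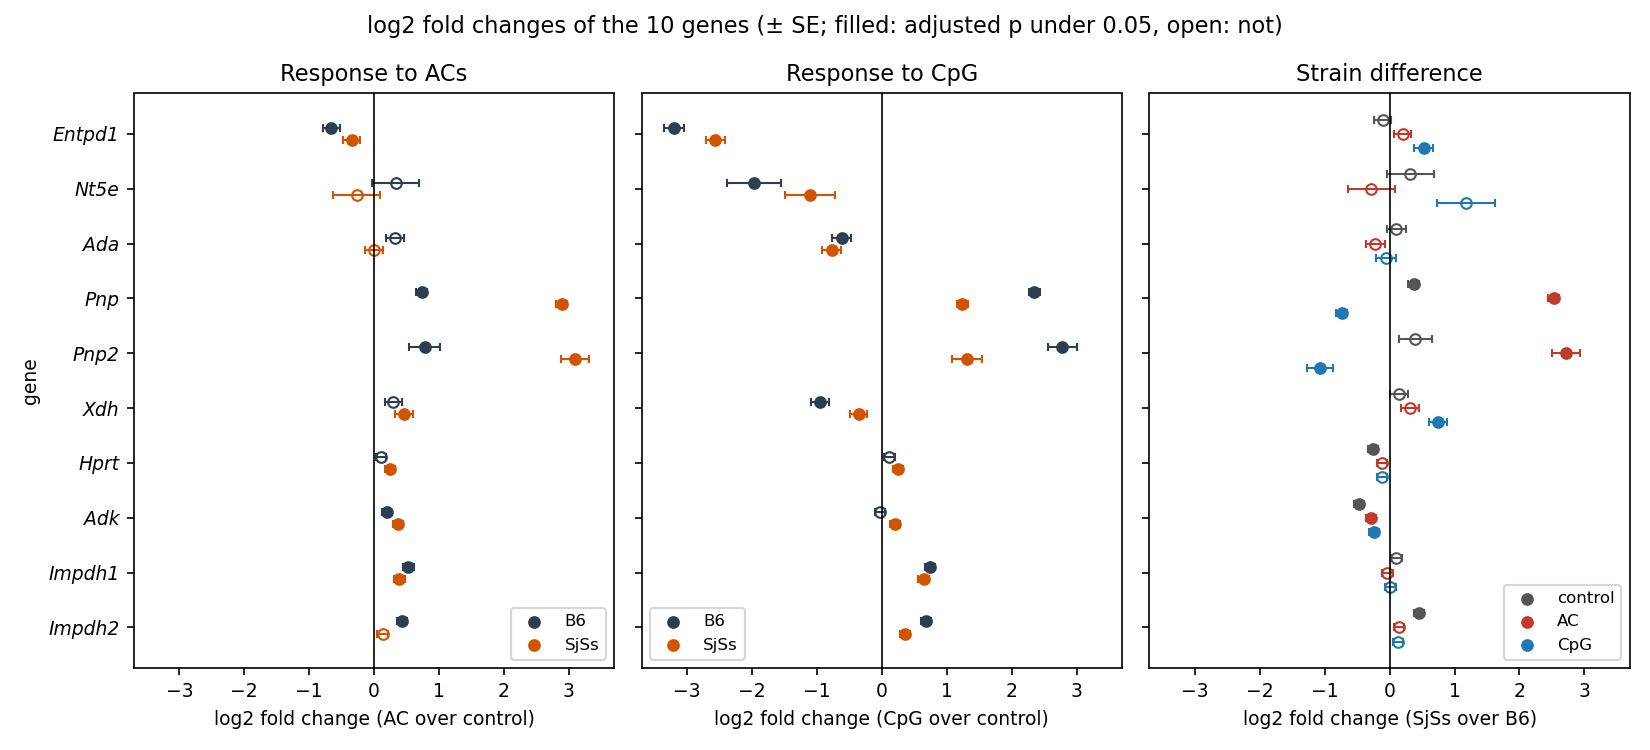
Log2 fold changes (x axis) of the 10 genes (y axis) for the responses to ACs and CpG in each strain and for SjSs over B6 in each condition; bars are SEs, filled points have an adjusted p under 0.05 and open points do not. *Pnp* and *Pnp2* lie far to the right for ACs in SjSs (2.89 and 3.10) and *Entpd1* far to the left for CpG (-3.20 in B6 and -2.57 in SjSs); scaled by library totals alone, the points of *Hprt*, *Adk*, *Impdh1* and *Impdh2* for ACs in SjSs fall below 0.

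*Entpd1*, the gene of the surface enzyme CD39, fell with CpG in both strains and by less with ACs. It was at 212, 248 and 223 CPM in the B6 control samples and at 18.8, 27.8 and 27.8 CPM with CpG, and at 236, 219 and 178 CPM in SjSs control and 42.0, 36.3 and 28.5 CPM with CpG. Every CpG sample lay far below every control sample of its strain. The log2 fold change was -3.20 ± 0.15 (SE; edgeR adjusted p = 1.08e-12) in B6, a level 0.109 times that of control, and -2.57 ± 0.14 (edgeR adjusted p = 2.24e-11) in SjSs. With ACs the samples were at 132, 148 and 153 CPM in B6 and at 168, 168 and 162 CPM in SjSs. Both AC groups lay below their controls without overlap, with log2 fold changes of -0.66 ± 0.13 (edgeR adjusted p = 6.77e-04) in B6 and -0.35 ± 0.13 (edgeR adjusted p = 0.0336) in SjSs. The latter no longer passed without SjSs control 1 (adjusted p = 0.152), SjSs control 2 (0.0875) or any of the SjSs AC samples (0.0659 to 0.087 by edgeR), and was -0.76 with library totals alone. With CpG, SjSs kept more *Entpd1* than B6 by a log2 difference of 0.52 ± 0.14 (edgeR adjusted p = 0.014), which did not pass without B6 CpG 1 (0.0818) or SjSs CpG 1 (0.0963) or in the fit of the compared groups only (0.0641). The difference between the CpG responses was 0.63 (95% interval 0.22 to 1.04), with an edgeR adjusted p of 0.0646 that became 0.0436 without SjSs control 1, 0.0168 without SjSs CpG 3, 0.0371 with library totals alone and 0.0223 with DESeq2.

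*Nt5e*, the gene of CD73, which makes adenosine from AMP, was barely expressed and also fell with CpG. Its counts were 152, 72 and 110 in B6 control and 35, 10 and 23 in B6 CpG, or 2.43, 1.5 and 1.95 CPM against 0.706, 0.266 and 0.500 CPM. In SjSs it was at 2.80, 2.87 and 1.76 CPM in control and at 1.42, 1.06 and 0.936 CPM with CpG, and the groups did not overlap in either strain. The log2 fold change was -1.97 ± 0.42 (edgeR adjusted p = 5.00e-04) in B6 and -1.11 ± 0.38 (edgeR adjusted p = 0.0195) in SjSs. The SjSs value did not pass without SjSs control 1 (adjusted p = 0.0621), SjSs control 2 (0.0592), SjSs CpG 2 (0.0543) or SjSs CpG 3 (0.0728). The AC samples spread from 1.63 to 4.03 CPM in B6 and from 1.26 to 3.07 CPM in SjSs, and overlapped the controls in both strains. A change of *Nt5e* with ACs was not detectable at this depth, since the 95% intervals of the log2 fold change ran from -0.42 to 1.08 in B6 and from -1.03 to 0.49 in SjSs. With CpG, *Nt5e* was 2.26-fold higher in SjSs than in B6, with no overlap but an edgeR adjusted p of 0.0696 (0.0279 with DESeq2, 0.0381 with the replicate block and 0.0459 with library totals alone).

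*Ada*, which deaminates adenosine to inosine, fell with CpG in both strains. It was at 4.43, 3.46 and 3.41 CPM in B6 control and 2.48, 2.85 and 2.06 CPM in B6 CpG, and at 3.54, 4.35 and 4.30 CPM in SjSs control and 2.54, 2.25 and 2.31 CPM in SjSs CpG. All CpG samples lay below all controls. The log2 fold changes were -0.62 ± 0.15 (edgeR adjusted p = 0.0016) in B6 and -0.77 ± 0.15 (edgeR adjusted p = 2.59e-04) in SjSs. With ACs *Ada* was at 5.24, 4.75 and 4.14 CPM in B6 and at 3.77, 3.95 and 4.42 CPM in SjSs, which overlapped the controls. The difference in B6 (0.32, 95% interval 0.02 to 0.62, edgeR adjusted p = 0.0892) passed only without B6 control 1 (0.0286) among the samples left out, and in SjSs the log2 difference was 0.00 with an interval from -0.30 to 0.31. *Ada* is abundant in thymocytes, the cells given as ACs. The sum of the 19 thymocyte and T lineage markers other than *Cd4* was higher with ACs in both strains, though not every marker rose, as given above. *Rag1*, *Dntt* and *Cd8a* were higher in B6 AC than in B6 control, but *Cd8a* was also at 19 counts in B6 CpG, without ACs. The part of thymocyte RNA in the *Ada* values was not tested. Scaled by library totals alone, *Ada* with ACs in SjSs had a log2 fold change of -0.41 that passed (edgeR adjusted p = 0.0188), where the median gene shifted by -0.41. Under that scaling the strain difference with ACs (-0.52, edgeR adjusted p = 0.00461) and the interaction of strain and AC (-0.66, 0.0124) passed as well.

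**Figure D3:**
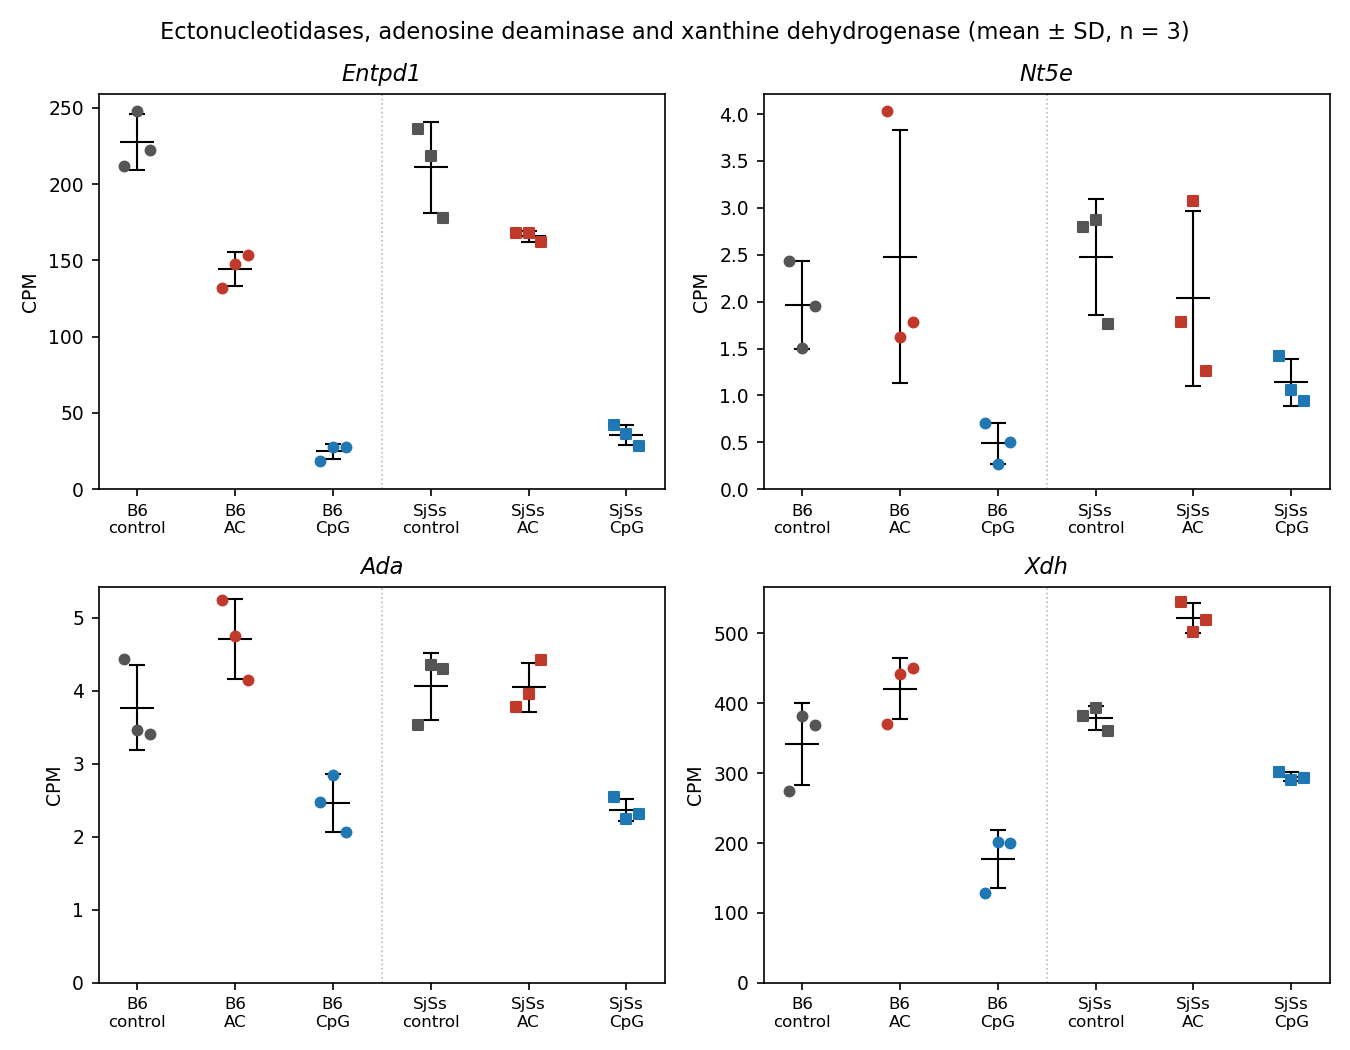
CPM of *Entpd1*, *Nt5e*, *Ada* and *Xdh* in each sample (points; circles B6, squares SjSs) with the mean and SD of 3 samples. In each panel the CpG samples lie below the control samples of the same strain, from 212 to 248 CPM down to 18.8 to 27.8 CPM for *Entpd1* in B6.

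*Pnp*, which acts after *Ada* and releases hypoxanthine and guanine, rose in all 4 responses, and was highest with CpG in B6 and with ACs in SjSs. It was at 133, 126 and 129 CPM in B6 control, 212, 219 and 217 CPM in B6 AC, and 665.5, 722 and 591.5 CPM in B6 CpG. In SjSs it was at 163, 167 and 173 CPM in control, 1184, 1284 and 1264 CPM with ACs, and 385, 341 and 460 CPM with CpG. No sample of any group overlapped another group. ACs raised *Pnp* by 1.67-fold in B6 (log2 fold change 0.74 ± 0.09, edgeR adjusted p = 1.37e-06) and by 7.42-fold in SjSs (2.89 ± 0.09, edgeR adjusted p = 3.17e-15). CpG raised it by 5.09-fold in B6 (2.35 ± 0.09, edgeR adjusted p = 6.41e-14) and by 2.36-fold in SjSs (1.24 ± 0.09, edgeR adjusted p = 4.43e-10).

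The strains differed in *Pnp* in all conditions. SjSs BMDMs were 1.29-fold higher without treatment (edgeR adjusted p = 0.00451), 5.76-fold higher with ACs (edgeR adjusted p = 5.88e-14) and at 0.599 times the B6 level with CpG (edgeR adjusted p = 5.26e-06). The AC response was larger in SjSs by 2.15 ± 0.12 on the log2 scale (95% interval 1.90 to 2.41, edgeR adjusted p = 1.37e-10). The CpG response was smaller in SjSs by -1.11 ± 0.12 (95% interval -1.36 to -0.86, edgeR adjusted p = 2.44e-05). Both interactions passed in every fit tried, and leaving out any sample kept them between 2.13 and 2.19 and between -1.24 and -1.02.

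The group means of *Pnp2* had the same order as those of *Pnp*, and *Pnp2* held about 1% of the counts of the pair. Its counts were 88, 62 and 54 in B6 control, 102, 148 and 65 in B6 AC, 459, 350 and 308 in B6 CpG, 62, 58 and 110 in SjSs control, 497, 708 and 611 in SjSs AC, and 156, 157 and 203 in SjSs CpG. The largest value again lay in SjSs AC and the next in B6 CpG. Unlike for *Pnp*, SjSs control (1.14 to 1.99 CPM) overlapped B6 control (0.959 to 1.41 CPM) and B6 AC (1.45 to 2.80 CPM). The strain difference of *Pnp2* without treatment was 0.40 ± 0.25 and did not pass (edgeR adjusted p = 0.284). The log2 fold changes were 3.10 ± 0.22 with ACs in SjSs (edgeR adjusted p = 4.66e-10), 2.78 ± 0.22 with CpG in B6 (2.96e-09) and 1.31 ± 0.23 with CpG in SjSs (6.82e-05). With ACs in B6 it was 0.78 ± 0.24 (edgeR adjusted p = 0.0139), which did not pass without B6 control 3 (0.0702) or B6 AC 2 (0.123). The interactions were 2.31 ± 0.33 with AC (edgeR adjusted p = 1.56e-05) and -1.47 ± 0.32 with CpG (edgeR adjusted p = 0.00992). *Pnp2* made up 0.933% ± 0.171 of the summed *Pnp* and *Pnp2* counts in B6 control, 0.957% ± 0.299 in B6 AC, 1.26% ± 0.127 in B6 CpG, 0.950% ± 0.228 in SjSs control, 1.10% ± 0.0423 in SjSs AC and 1.01% ± 0.111 in SjSs CpG (SD, n = 3). With 3 against 3 samples the smallest p possible is 0.1, so no difference in this share could pass, and the test cannot decide whether it differs. Over 7 comparisons of groups, p ran from 0.1 to 1.0 (exact two-sided permutation test, adjusted p from 0.7 to 1.0). The B6 CpG samples (1.12% to 1.37%) all lay above the B6 control samples (0.737% to 1.05%). The authors' counting estimates how to divide reads that fit both genes, and how many of the *Pnp2* counts came from *Pnp* transcripts was not tested. *Pnp* also overlaps the table gene Gm38316 on the opposite strand.

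**Figure D4:**
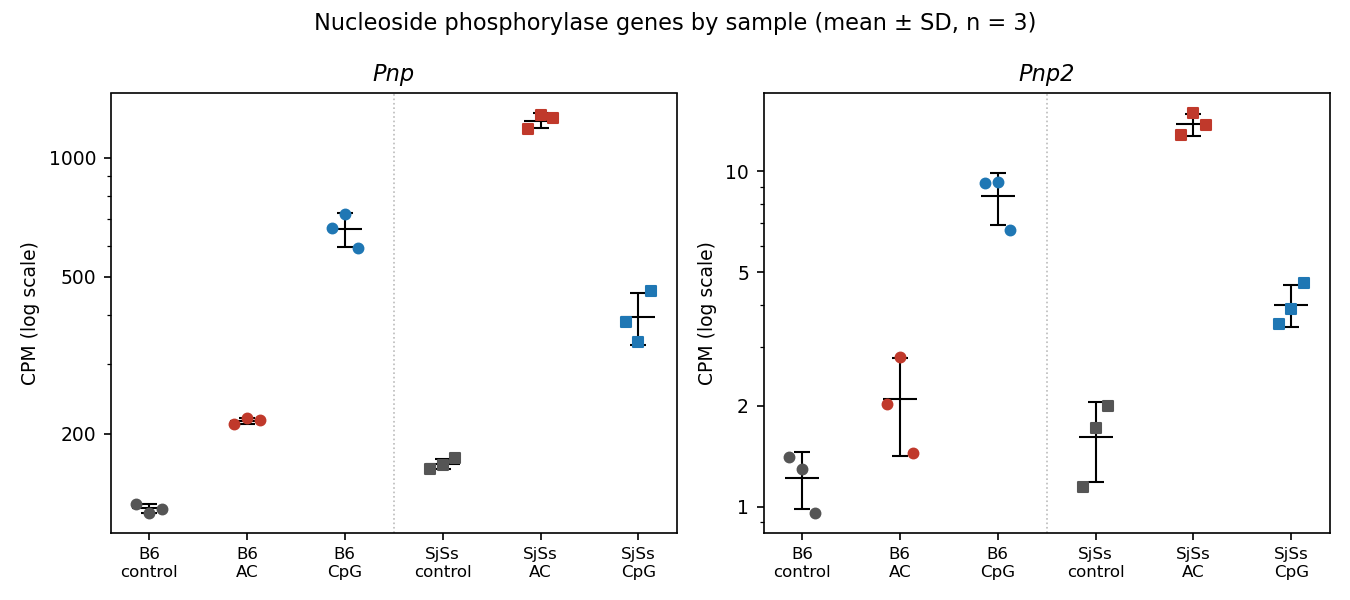
CPM (log axis) of *Pnp* and *Pnp2* in each sample (points; circles B6, squares SjSs) with the mean and SD of 3 samples. In SjSs the AC samples of *Pnp* (1184 to 1284 CPM) lie above the CpG samples (341 to 460 CPM), and in B6 the AC samples (212 to 219 CPM) lie below the CpG samples (591.5 to 722 CPM).

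*Xdh*, the enzyme that forms uric acid, fell with CpG in both strains and rose with ACs in SjSs, each by under 1 on the log2 scale. It was at 275, 382 and 369 CPM in B6 control, 370.5, 441.5 and 451 CPM in B6 AC and 128.5, 201.5 and 200.1 CPM in B6 CpG. In SjSs it was at 381, 394 and 360.1 CPM in control, 546, 502 and 519.5 CPM with ACs and 302, 290 and 294 CPM with CpG. The CpG samples lay below the controls in both strains, and the AC samples lay above them without overlap in SjSs alone. The CpG response was -0.95 ± 0.14 (edgeR adjusted p = 6.00e-06) in B6 and -0.36 ± 0.13 (edgeR adjusted p = 0.0307) in SjSs, and the latter passed only without SjSs control 3 when samples were left out (0.0549 to 0.0833 otherwise). With ACs *Xdh* rose in SjSs by 0.46 ± 0.13 (edgeR adjusted p = 0.00604; 0.05 with library totals alone, where it did not pass, 0.741), and in B6 the value was 0.30 (95% interval 0.02 to 0.58, edgeR adjusted p = 0.0888; 0.05, just under the threshold, without B6 AC 1). With CpG, SjSs held 1.67-fold more *Xdh* than B6 (log2 0.74 ± 0.14, edgeR adjusted p = 6.61e-04). With ACs the strain difference was 0.31 (edgeR adjusted p = 0.0619), and it passed with DESeq2 (0.0269), with DESeq2's size factors in edgeR (0.0407), with the replicate block (0.0331) and in the fit of the compared groups only (0.00215). The interaction of strain and CpG, 0.60 (95% interval 0.20 to 0.99), missed the threshold (edgeR adjusted p = 0.075) and passed with DESeq2 (0.0264), with the replicate block (0.0435), with library totals alone (0.0443) and without B6 control 1 (0.0243).

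*Hprt*, which returns hypoxanthine and guanine to nucleotides and is a common reference gene for RT-qPCR, moved little. It was at 168, 162 and 139 CPM in B6 control, 171, 163 and 170.0 CPM in B6 AC, 192, 154 and 163 CPM in B6 CpG, 141.5, 129 and 123 CPM in SjSs control, 154, 159 and 154 CPM in SjSs AC, and 163, 154 and 150 CPM in SjSs CpG. All its log2 differences in the 9 comparisons lay between -0.25 and 0.25 with TMM, whereas with library totals alone the strain difference with ACs was -0.41 and passed (edgeR adjusted p = 1.16e-04). In SjSs it was higher with ACs by 0.25 ± 0.08 (edgeR adjusted p = 0.0116) and with CpG by 0.25 ± 0.08 (edgeR adjusted p = 0.0118), but with library totals alone these were -0.17 and 0.12 and neither passed. Without SjSs control 3 neither passed (0.0605 and 0.0633), nor did the CpG value without SjSs CpG 1 (0.0568). Untreated SjSs BMDMs had less *Hprt* than untreated B6 BMDMs by -0.25 ± 0.08 (edgeR adjusted p = 0.0291), with 1 SjSs sample inside the B6 range, and this did not pass without B6 control 1 (0.137), B6 control 2 (0.11), SjSs control 2 (0.0846) or SjSs control 3 (0.129), with library totals alone (0.0571) or in the fit of the compared groups only (0.0689). In B6 the log2 differences were 0.10 with ACs (95% interval -0.06 to 0.27) and 0.12 with CpG (-0.05 to 0.28; -0.06 with library totals alone).

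*Adk*, which phosphorylates adenosine back to AMP, was lower in SjSs than in B6 in each condition. It was at 20.0, 23.7 and 18.7 CPM in B6 control against 14.9, 15.4 and 14.9 CPM in SjSs control, a log2 difference of -0.47 ± 0.08 (edgeR adjusted p = 2.67e-04). With ACs it was at 23.5, 24.1 and 23.7 CPM in B6 against 19.8, 19.6 and 19.0 CPM in SjSs (-0.29 ± 0.08, edgeR adjusted p = 0.00344). With CpG it was at 21.3, 20.4 and 19.7 CPM in B6 against 16.7, 16.7 and 18.5 CPM in SjSs (-0.24 ± 0.08, edgeR adjusted p = 0.0305). The strains did not overlap in any condition. The difference with CpG did not pass without B6 CpG 1 (0.11), B6 CpG 2 (0.0711), SjSs CpG 1 (0.108) or SjSs CpG 2 (0.112), in the fit of the compared groups only (0.0628) or with library totals alone (-0.15, 0.148). Within SjSs, *Adk* rose with ACs by 0.37 ± 0.08 (edgeR adjusted p = 3.81e-04), which became -0.04 when libraries were scaled by their totals alone. The other responses were 0.19 with ACs in B6 (edgeR adjusted p = 0.046), 0.20 with CpG in SjSs (0.0353) and -0.03 with CpG in B6 (0.799; 0.00 with DESeq2's size factors, and -0.20, which passed, with library totals alone, 0.0174). Neither of the former pair passed in the fit of the compared groups only (0.105 and 0.0546), without the filter (0.067 and 0.0512) or with library totals alone (0.179 and 0.432). The value for ACs in B6 passed only without B6 control 2 when samples were left out (0.0798 to 0.235 otherwise), and that for CpG in SjSs did not pass without any of the SjSs controls or SjSs CpG 3 (0.0524 to 0.165).

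*Impdh1* and *Impdh2* encode the isoenzymes of the step from IMP toward GMP. *Impdh1* rose in each response with TMM, and in all but that to ACs in SjSs with library totals alone. It was at 37.1, 38.3 and 38.9 CPM in B6 control, 59.9, 52.4 and 52.7 CPM with ACs and 69.2, 60.3 and 61.7 CPM with CpG. In SjSs it was at 37.3, 45.8 and 40.1 CPM in control, 50.0, 54.8 and 56.3 CPM with ACs and 58.0, 65.5 and 69.1 CPM with CpG. No treated sample overlapped the controls of its strain. The log2 fold changes were 0.53 ± 0.08 (ACs, B6; edgeR adjusted p = 4.52e-05), 0.39 ± 0.08 (ACs, SjSs; 4.87e-04, but -0.02 with library totals alone), 0.74 ± 0.08 (CpG, B6; 2.49e-07) and 0.65 ± 0.08 (CpG, SjSs; 1.92e-06). With TMM the strain difference did not pass in any condition, with log2 differences between -0.03 and 0.11. With library totals alone it was -0.33 with ACs (edgeR adjusted p = 0.00162) and the interaction of strain and AC was -0.48 (0.00204), and both passed.

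*Impdh2* was at 13.6, 12.0 and 12.5 CPM in B6 control, 17.7, 16.3 and 17.7 CPM in B6 AC and 22.7, 18.6 and 19.9 CPM in B6 CpG. In SjSs it was at 16.3, 17.2 and 18.7 CPM in control, 18.5, 19.8 and 18.8 CPM with ACs and 21.6, 22.2 and 23.0 CPM with CpG. Every untreated SjSs sample lay above every untreated B6 sample (log2 0.45 ± 0.08, edgeR adjusted p = 4.89e-04), while the treated groups of the strains lay closer to each other. *Impdh2* rose with ACs in B6 (0.44 ± 0.08, edgeR adjusted p = 2.03e-04) and with CpG in B6 (0.68 ± 0.08, 3.76e-07) and SjSs (0.36 ± 0.08, 7.00e-04). With ACs in SjSs it was 0.13 (95% interval -0.03 to 0.29, edgeR adjusted p = 0.162), or -0.28 with library totals alone, which passed (0.00514). The AC response differed between strains by -0.30 ± 0.11 (edgeR adjusted p = 0.0366; -0.65, 1.47e-04, with library totals alone), which did not pass with DESeq2 (0.0735), with DESeq2's size factors (0.0589), without the filter (0.06) or, to 0.0551 to 0.101, without B6 control 2 or 3, B6 AC 1 or 3, SjSs control 2 or 3, or SjSs AC 1 or 3. The CpG responses differed by -0.33 (edgeR adjusted p = 0.09; 0.0457 with DESeq2). *Impdh2* overlaps *Ndufaf3* on the opposite strand, and whether the counting used strand was not given in the sources used here.

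On the per-length scale *Impdh1* made up 68.2% ± 1.84 of the summed IMP dehydrogenase level in B6 control, 69.5% ± 1.36 in B6 AC and 69.1% ± 0.644 in B6 CpG (SD, n = 3). The share was 62.7% ± 2.55 in SjSs control, 66.8% ± 1.19 in SjSs AC and 67.3% ± 1.32 in SjSs CpG. The untreated SjSs samples had the lowest shares of all groups, but with 3 against 3 samples an exact permutation test cannot go below p = 0.1, and over 7 comparisons no adjusted p was under 0.175.

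**Figure D5:**
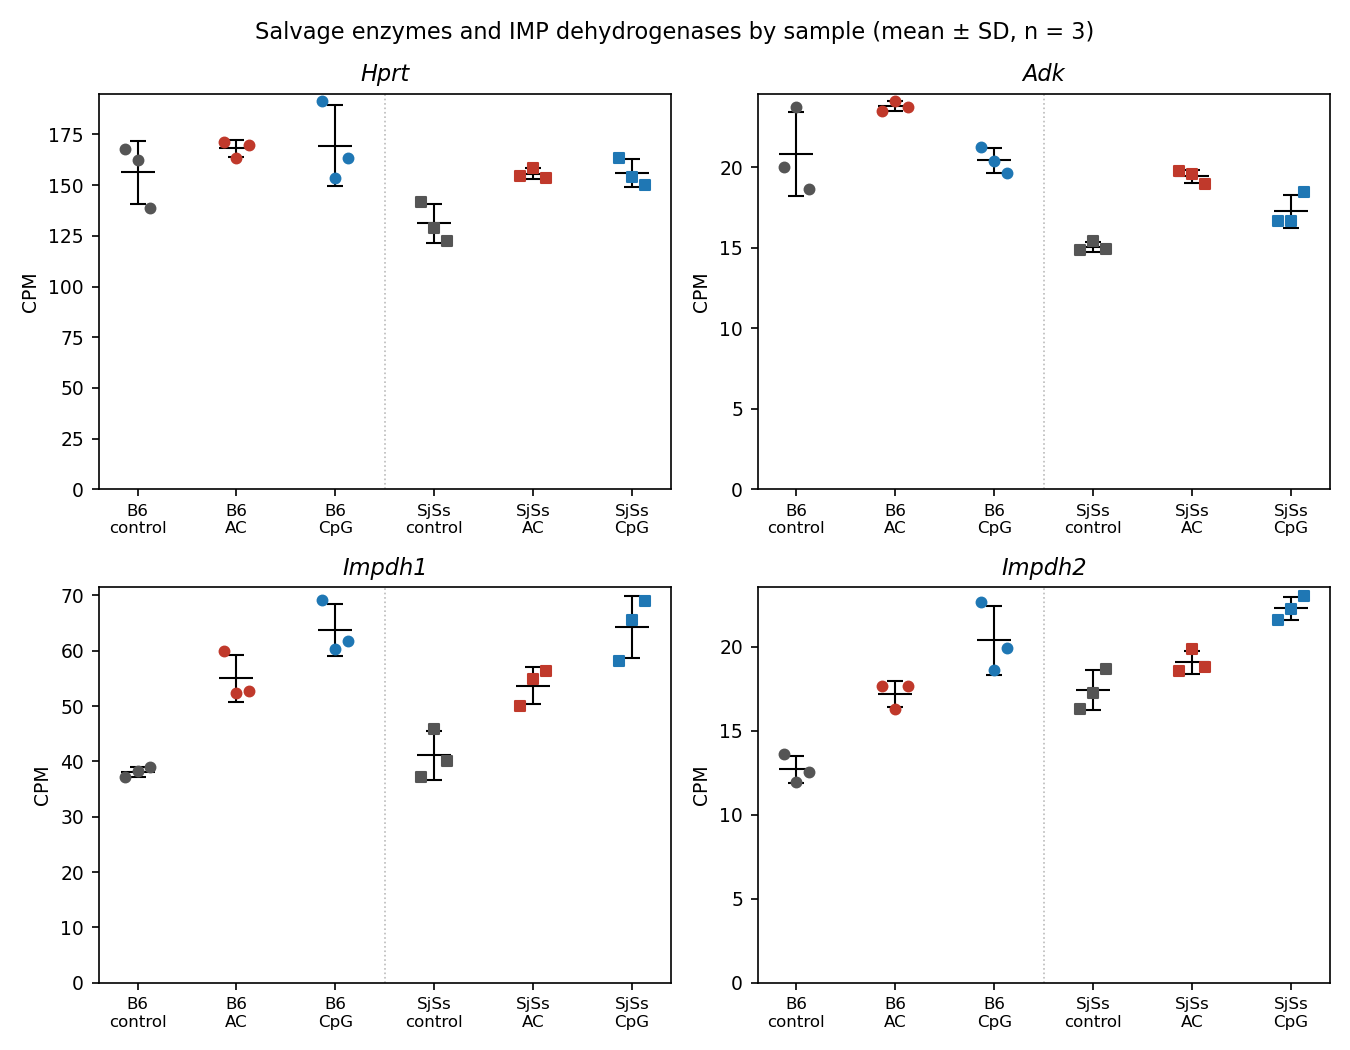
CPM of *Hprt*, *Adk*, *Impdh1* and *Impdh2* in each sample (points; circles B6, squares SjSs) with the mean and SD of 3 samples. *Adk* is lower in SjSs control (14.9 to 15.4 CPM) than in B6 control (18.7 to 23.7 CPM), and *Impdh2* is higher (16.3 to 18.7 against 12.0 to 13.6 CPM).

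Other genes of purine metabolism were counted in 3 lists. Of 20 tested genes of salvage and degradation outside the group, 10 passed with ACs in B6 (8 higher, 2 lower), 11 with ACs in SjSs (5 higher, 6 lower), 13 with CpG in B6 (9 higher, 4 lower) and 8 with CpG in SjSs (5 higher, 3 lower), beside 38.3%, 58.0%, 57.9% and 54.2% of all genes tested. In that order the list median of the log2 fold change was 0.14, -0.01, 0.14 and 0.07, beside 0.00, -0.02, -0.04 and -0.01 over all genes tested. With library totals alone the counts were 7 higher and 2 lower, 5 higher and 14 lower, 6 higher and 7 lower, and 5 higher and 7 lower. *Nt5c3*, a cytosolic nucleotidase that acts mainly on pyrimidine nucleotides, was at 13.6 ± 0.985 CPM in SjSs control and 237 ± 1.78 CPM in SjSs AC, against 12.3 ± 0.402 and 24.1 ± 1.23 CPM in B6 (SD, n = 3; interaction 3.15 ± 0.15, edgeR adjusted p = 1.66e-11). *Dck*, the deoxycytidine kinase that also phosphorylates purine deoxynucleosides, was at 42.3 ± 0.348 and 232 ± 12.0 CPM in SjSs, against 39.9 ± 4.89 and 57.9 ± 2.09 CPM in B6 (interaction 1.92 ± 0.12, edgeR adjusted p = 3.48e-10). *Samhd1*, a hydrolase of deoxynucleotides, rose with ACs by 1.58 ± 0.10 in SjSs (edgeR adjusted p = 4.28e-11) and by 0.36 ± 0.09 in B6 (0.00469), and *Ampd3*, which deaminates AMP, rose by 1.15 ± 0.09 and 1.00 ± 0.09 (2.96e-09 and 9.16e-08).

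Of 13 genes of de novo purine synthesis, 5 passed with ACs in SjSs, all lower, and 6 with ACs in B6 (4 higher, 2 lower). With CpG 8 passed in B6 (3 higher, 5 lower) and 10 in SjSs (5 higher, 5 lower). Of all genes tested, 58.0% passed with ACs in SjSs (29.4% lower), 38.3% with ACs in B6, 57.9% with CpG in B6 and 54.2% with CpG in SjSs. The list medians were 0.14 with ACs in B6, -0.12 with ACs in SjSs, -0.04 with CpG in B6 and -0.13 with CpG in SjSs. With library totals alone all 13 were lower with ACs in SjSs. The counts were then 2 higher and 3 lower with ACs in B6, 2 higher and 8 lower with CpG in B6, and 2 higher and 7 lower with CpG in SjSs. *Pfas*, which catalyses a step on the way to IMP, was lower with ACs in SjSs by -0.62 ± 0.07 (edgeR adjusted p = 5.71e-07) and was at 0.03 in B6 (0.8). *Adssl1*, which leads from IMP toward AMP, changed by -0.94 ± 0.11 with ACs in SjSs (3.64e-07) and 0.31 ± 0.11 in B6 (edgeR adjusted p = 0.0245), and fell with CpG in both strains by -1.66 and -1.76 (1.88e-10 and 1.04e-10). *Prps2* fell with CpG by 0.81 on the log2 scale in SjSs (edgeR adjusted p = 5.82e-08) and by more in B6 (2.27e-09), and *Atic* rose with CpG by 0.61 in B6 and 0.74 in SjSs (3.87e-07 and 4.29e-08).

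The last list held nucleotide enzymes of the cell surface, relatives of these enzymes that need not be extracellular, and nucleoside transporters. Of its 13 tested genes, 10 passed with ACs in B6 (3 higher, 7 lower) and 10 with ACs in SjSs (4 higher, 6 lower). With CpG 9 passed in B6 (3 higher, 6 lower) and 9 in SjSs (4 higher, 5 lower). In the same order, 38.3%, 58.0%, 57.9% and 54.2% of all genes tested passed. The list medians were -0.15, -0.07, -0.18 and -0.09 in that order. With library totals alone the counts were 1 higher and 7 lower, 1 higher and 9 lower, 3 higher and 6 lower, and 4 higher and 7 lower. *Cd38*, an ectoenzyme that consumes NAD, rose in each response, from 98.0 ± 17.9 to 191 ± 45.1 CPM with ACs in B6 and from 65.9 ± 9.08 to 275 ± 21.5 CPM with ACs in SjSs (interaction 1.09 ± 0.21, edgeR adjusted p = 3.69e-04). *Slc28a2*, a concentrative nucleoside transporter, differed between strains in both responses, as *Pnp* did: its CpG response was 1.92 ± 0.13 in B6 and 1.05 ± 0.13 in SjSs (interaction -0.87 ± 0.18, edgeR adjusted p = 0.00602), and its AC response -0.11 ± 0.13 in B6 and 0.68 ± 0.13 in SjSs (interaction 0.79 ± 0.18, 0.00198). With library totals alone its AC response in SjSs was 0.26 and did not pass (0.0634). *Slc29a3*, an equilibrative nucleoside transporter, fell with CpG in both strains, with log2 fold changes of -1.17 in B6 and -1.07 in SjSs (edgeR adjusted p = 1.11e-11 and 5.85e-11). With ACs it fell in B6 (-0.51, 3.66e-06). In SjSs its AC response was 0.25 (0.00193) with TMM and -0.16 (0.0333) with library totals alone, and the interaction was 0.76 ± 0.09 (edgeR adjusted p = 1.75e-06). *Entpd4* fell in all 4 responses, by -0.36 to -0.98.

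As a description over the 18 samples, which share groups and libraries, the genes whose log2 CPM was most like that of *Pnp* were *Rnf114* (Pearson r = 0.988), *Trim30a* (0.986) and *Pim1* (0.984), and *Pnp2* ranked 10 of all tested genes (0.982). For *Ada* they were *Ogdhl* (0.932), *Cux1* (0.929) and *Ctla2b* (0.927). For *Xdh* they were *Gpr162* (0.986), *Abca1* (0.966) and *Stx3* (0.963).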

How the data were processed

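RNA from 18 BMDM samples had been sequenced by the study. The authors aligned reads to mm10 with STAR and quantified genes with Partek's E/M tool, whose versions are not given in the sources used here, and deposited estimated counts per gene, not normalized, of which 41.1% were not whole (tolerance 1e-06). These counts were rounded. Groups came from the sample labels.

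Genes were filtered with filterByExpr, libraries were TMM normalised, and group means of all 18 samples were fitted jointly by quasi-likelihood with edgeR 4.0.16 in R 4.3.3 (limma 3.58.1). Benjamini-Hochberg adjustment was over all 15789 genes tested within each of 9 comparisons. Fold changes are on the log2 scale, and the threshold of 1.3 is that of the study's methods. CPM use TMM-scaled totals, and log2 CPM a prior count of 2. Shares were compared by exact two-sided permutation tests. Python 3.11.15, pandas 2.3.3, scipy 1.17.1 and matplotlib 3.10.9 made tables and figures. The pipeline was tested on simulated data.

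All 10 genes are described. In each of the other lists, up to 4 genes with the lowest p in the AC response of SjSs, the CpG response of B6 or the interaction of strain and AC are named. Of the known responders that could be named, *Cxcl10* and *Tnf*, neither was needed. The genes, lists and tests were chosen with earlier results of these data known. Coordinates are those of the deposited table. Transcript lengths are from GENCODE M21, and promoter windows from RefSeq.

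The alternatives were DESeq2 1.42.0, its size factors within edgeR, library totals alone, no filter, a filter of 10 counts in 3 samples, fits of the compared groups only, *Pnp* and *Pnp2* summed, a replicate block, and each sample left out in turn. Deviations from the group mean were correlated between samples with the same number. The values were 0.26, 0.264 and 0.137 for B6 control and B6 CpG. Within each strain all were positive, from 0.0198 to 0.264, and between strains they ran from -0.0939 to 0.0596. Differently numbered samples were not compared, so these values cannot decide whether the numbers pair samples by mouse. The main fit treats samples as unpaired, and the replicate block ties equal numbers across strains as well. Total counts of 30688288 to 57139640 per sample set the precision. P-values rest on the spread between the 3 samples of each group in the joint fit. With 3 mice per strain, the responses may compare cultures of the same mice, and which samples shared a mouse was not given.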

Additional observations from a re-analysis of the deposited data

Results flagged for a closer look

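The response to a treatment differed between strains, by a test of the difference itself, for 3 of the 10 genes with ACs (37.9% of all genes tested) and for 2 of the 10 with CpG (5.85%). For *Pnp* the AC response was larger in SjSs by 2.15 on the log2 scale and the CpG response smaller by -1.11 (edgeR adjusted p = 1.37e-10 and 2.44e-05). For *Pnp2* these differences were 2.31 and -1.47 (edgeR adjusted p = 1.56e-05 and 0.00992). For *Impdh2* the AC response was smaller in SjSs by -0.30 (edgeR adjusted p = 0.0366), and it did not pass with DESeq2 (0.0735).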

How the results depend on the processing

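The *Pnp* responses, strain differences and interactions kept their direction and passed in every alternative. Of 1411 values of single genes under all alternatives, 1287 kept their direction and side of the threshold, 63 no longer passed, 26 newly passed and 35 reversed, and the cause of these changes was not tested. The number of the 10 genes that passed moved by over 1.5 times in these cases. With library totals alone it was 6 in place of 3 for the strain difference with ACs, 5 in place of 3 for the interaction with AC, and 4 in place of 2 for that with CpG. In fits of the compared groups only it was 5 in place of 3 for the strain difference with ACs, and 3 in place of 5 for that with CpG. For the interaction with CpG it was 5 with DESeq2 and, with *Pnp* and *Pnp2* summed, 1 of 9. When single samples were dropped it ranged from 4 to 6 for ACs in B6, was 6 each time for ACs in SjSs and 8 for CpG in B6, and ranged from 7 to 8 for CpG in SjSs, from 3 to 4 between untreated strains, from 3 to 5 between strains with CpG (3 without B6 CpG 1 or SjSs CpG 1), and from 2 to 3 in both interactions.

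The replicate number as a block gave 6, 7, 8 and 10 genes for ACs in B6 and SjSs and CpG in B6 and SjSs, 4, 4 and 6 for the strain differences (control, AC, CpG) and 3 and 3 for the interactions with AC and CpG. It added *Xdh* (0.0331) with ACs and *Nt5e* (0.0381) with CpG between strains, and *Xdh* (0.0435) in the interaction with CpG, and changed no other call. Outside B6 control and B6 CpG not every same-numbered pair correlated above 0.1. A block within each strain, chosen after seeing the data, gave 6, 7, 8 and 10 for the 4 responses, with *Adk* lost (0.0703) and *Xdh* gained (0.00366) for ACs in B6.

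Values that reversed with library totals alone were for ACs in SjSs -0.41 (*Ada*), -0.0446 (*Adk*), -0.17 (*Hprt*), -0.0241 (*Impdh1*) and -0.28 (*Impdh2*), for CpG in B6 -0.0633 (*Hprt*), between strains with ACs -0.10 (*Entpd1*) and -0.15 (*Impdh2*) and with CpG 0.0413 (*Ada*), and for the interaction with AC -0.17 (*Adk*), -0.20 (*Hprt*), -0.18 (*Xdh*) and -0.0298 (*Entpd1*). For *Ada* with ACs in SjSs the value was -0.0045 without a filter, -0.0007 with 10 counts in 3 samples, -0.0066 in the compared groups and -0.0115 with the block within strain. *Adk* with CpG in B6 was 0.0045 with DESeq2's size factors and 0.0056 with DESeq2, and *Impdh1* between strains with CpG -0.0141 and -0.0144. With samples left out, ranges that crossed 0 ran from -0.21 to 0.57 (*Nt5e*, ACs in B6), -0.0927 to 0.0493 (*Ada*, ACs in SjSs), -0.0975 to 0.078 (*Adk*, CpG in B6), -0.20 to 0.0011 (*Entpd1*, untreated strains), -0.71 to 0.26 (*Nt5e*) and -0.0684 to 0.0328 (*Impdh1*) between strains with ACs, and -0.191 to 0.0568 (*Ada*) and -0.0451 to 0.078 (*Impdh1*) with CpG. The *Impdh1* share of counts not divided by length was 75.0%, 76.1% and 75.8% in B6 control, AC and CpG and 70.2%, 73.8% and 74.2% in SjSs. Depth limits *Nt5e* most, with 10 to 203 counts per sample.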

Other observations

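*Hprt* served as the reference for *Pnp* within each library as a further description. The samples held 0.834 ± 0.0846 *Pnp* counts per *Hprt* count in B6 control, 1.29 ± 0.0537 in B6 AC and 3.93 ± 0.671 in B6 CpG (SD, n = 3). In SjSs the ratio was 1.29 ± 0.131 in control, 8.0 ± 0.285 with ACs and 2.55 ± 0.460 with CpG. This ratio does not depend on how libraries were scaled, and its groups have the same order as the CPM of *Pnp* except that SjSs control and B6 AC share a mean of 1.29. *Xdh* counts per *Hprt* count were 2.22 ± 0.526, 2.51 ± 0.298 and 1.07 ± 0.348 in B6 control, AC and CpG, and 2.89 ± 0.181, 3.36 ± 0.187 and 1.90 ± 0.0569 in SjSs. The denominator *Hprt* was itself lower in untreated SjSs than in untreated B6 in the main fit (log2 -0.25, edgeR adjusted p = 0.0291). For *Xdh* that strain difference did not pass (0.15, edgeR adjusted p = 0.493). *Entpd1* counts per *Nt5e* count were 122 ± 39.6 in B6 control, 69.8 ± 32.25 in B6 AC and 62.2 ± 39.3 in B6 CpG. In SjSs they were 87.3 ± 12.7 in control, 92.5 ± 37.05 with ACs and 31.4 ± 2.44 with CpG. The low counts of *Nt5e* make these ratios imprecise.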
